A study of Mus musculus with 8 samples.

Results

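The CoREST repressor complex was followed through its 6 core genes in the macrophage-like mouse line RAW264.7 exposed to recombinant FSTL1 (rFSTL1). The genes were the 3 scaffolds Rcor1, Rcor2 and Rcor3, the histone demethylase Kdm1a and the deacetylases Hdac1 and Hdac2. They were taken by symbol from a table of 22013 genes, and each symbol was found on 1 row. The set was selected on the adjusted p of Rcor2, which was under 0.05 in the comparison of rFSTL1 with PBS, and the other members were added as its known partners. All values of the members from that comparison are therefore a description. There were 4 libraries from cells treated with PBS and 4 from cells treated with rFSTL1 at 100 ng/mL for 24 h. The labels give no source of the replicates beyond a number, so p-values measure the spread between these libraries, which may be technical. In bulk RNA, fewer cells expressing a gene and less RNA per cell cannot be told apart.

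CoREST removes active marks from histones. An RCOR scaffold bridges KDM1A (LSD1), which takes methyl groups off lysine 4 of histone H3, and HDAC1 or HDAC2, which take off acetyl groups, so that both marks are lost from the same nucleosome. The complex has no sequence preference of its own and is brought to DNA by factors such as REST, GFI1 or the SNAIL and ZEB proteins. It is best known for holding neuronal genes silent outside the nervous system and for its part in blood cell differentiation. In microglia and macrophages it has also been linked, through the nuclear receptor NR4A2 (NURR1), to the shutting off of inflammatory genes.

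Rcor2 was the member that differed most between the groups, so sequence around its starts is shown. Its reference promoter in RefSeq (GRCm38.p6) lies on the plus strand of chromosome 19. The 181 bases ahead of the first annotated transcript start, at chr19:7267144-7267324, are the first line, and the 30 bases at chr19:7267352-7267381 are the second, with the palindrome CACGTG, the E-box core, in capitals.
Rcor2 upstream: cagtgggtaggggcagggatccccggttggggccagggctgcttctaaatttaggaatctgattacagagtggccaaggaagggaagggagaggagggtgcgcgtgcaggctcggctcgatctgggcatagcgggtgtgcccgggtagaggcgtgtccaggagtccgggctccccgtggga
Rcor2 E-box: tgtgagctgcagCACGTGccccaggcggcg
The palindrome began 30 bases before the RefSeq start, but after the start of the first annotated transcript, which lies 69 bases before the RefSeq start. It was found on both strands, being its own reverse complement, and 7.15% of 32851 RefSeq promoters of 300 bases held it. The shorter ACGTG, the core bound by hypoxia-inducible factors, lies inside it and was in 19.6% of promoters. RefSeq promoters were matched for 5 of the 6 members, without Hdac1. Of these 5, Rcor2 was the member with either motif. GGGCGG, the GC box, was present in Rcor1, Rcor2, Rcor3 and Hdac2 and in 35.7% of promoters. TGACTCA (AP-1, 5.2% of promoters) and GGAATTTCC (NF-κB, 0.317%) were in none of the 5. Promoters of the 5 members were rich in G and C, from 61.3% in Kdm1a to 81.7% in Rcor3, against a median of 52.7% over all promoters. The motifs were chosen with these sequences in view, and a match is not a binding site. GENCODE places 4 Rcor2 transcripts on 4 starts, from 69 bases before to 3558 bases after the RefSeq start. The first of them is a transcript of 439 bases. The longest, of 2823 bases, starts 885 bases after the RefSeq start, so the bases shown lie well ahead of it. Counts per gene cannot tell these starts apart.

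Libraries held 15183118 to 20234477 counts under PBS and 15062023 to 19260960 under rFSTL1. Levels are given as CPM, the count scaled by the library total and edgeR's TMM factors. The macrophage markers Csf1r, Cd68, Lyz2, Cd14, Itgam, Spi1, Fcgr1 and Adgre1 were detected and summed with Mertk to 4350 to 4520 CPM under PBS and 4428 to 4628 CPM under rFSTL1. Adgre1, which encodes F4/80, was low, at 3.43 CPM under PBS and 3.66 CPM under rFSTL1 on average, and Mertk had at most 2 counts in any library. Markers of other cell types summed to at most 1.76 CPM, with Cd3e and Epcam at 0 in every library. On the first principal component of all tested genes, 28.8% of the variance, rFSTL1 libraries 3 and 4 stood apart at 8.43 and 15.2, while the other 6 lay between -8.02 and -0.17. On the second, 18.8% of the variance, rFSTL1 library 2 stood apart at -14.6, with the other 7 between -1.11 and 7.03. Values without libraries 3 and 4 are given where a member's value moved with them.

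Rcor2 encodes the least abundant of the 3 scaffolds in these cells, a protein studied mostly in embryonic stem cells and neural progenitors. Its level (ENSMUSG00000024968) was 4.55, 4.76, 4.84 and 4.14 CPM in PBS libraries 1 to 4 and 8.02, 7.94, 7.01 and 6.57 CPM in rFSTL1 libraries 1 to 4. All rFSTL1 libraries were above all PBS libraries. The means were 4.57 ± 0.312 CPM and 7.39 ± 0.711 CPM (SD, n = 4 each). This was a 1.60-fold difference, or 0.68 on the log2 scale (standard error 0.13, 95% interval 0.41 to 0.95). These values rest on 63 to 98 counts per PBS library and 120 to 134 per rFSTL1 library. The adjusted p that led to its choice was 0.0301 (edgeR, quasi-likelihood test, Benjamini-Hochberg over 10748 genes). Without rFSTL1 libraries 3 and 4 the log2 difference was 0.80. The adjusted p rose past 0.05 when 1 library was left out, for each of PBS libraries 1, 2, 3 and 4 and rFSTL1 library 3, reaching 0.154 without PBS library 4, while the log2 difference stayed between 0.63 and 0.74 in all 8 such fits. Of all tested genes, 37 (0.344%) had an adjusted p under 0.05, and Rcor2 was the 1 member of 6 among them. These were 35 higher (0.326%) and 2 lower (0.0186%) genes, but the split depended on the tool, with 130 higher (1.21%) and 52 lower (0.484%) in DESeq2 and 244 higher (2.27%) and 210 lower (1.95%) in limma voom. In edgeR an unadjusted p under 0.05 was found for Rcor2 and Rcor3, against 8.29% of tested genes on the higher side and 7.56% on the lower side. A log2 difference above 0 was found for Rcor2 and Hdac1, against 52% of tested genes. It ranked 22nd of all tested genes by p and 5th by fold among the 35 that were higher.

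**Figure D1:**
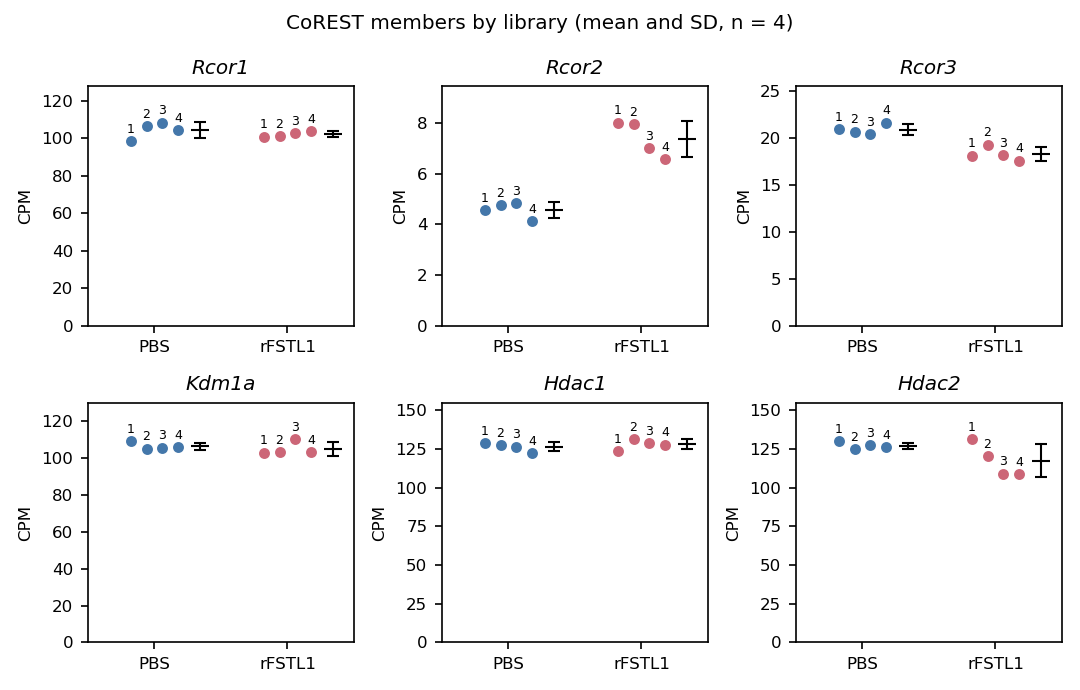
Level of the 6 CoREST genes in CPM (vertical axis, from 0) in each PBS library (blue) and rFSTL1 library (red), numbered by replicate, with the mean and SD of each group as a bar (n = 4). Rcor2 was between 4.14 and 4.84 CPM under PBS and between 6.57 and 8.02 CPM under rFSTL1. Rcor3 was lower in the 4 rFSTL1 libraries, and the groups of the other 4 genes overlapped.

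The other scaffolds were not higher under rFSTL1. Rcor3 (ENSMUSG00000037395), a scaffold reported to limit CoREST activity in some blood lineages, was at 20.9, 20.6, 20.4 and 21.6 CPM in PBS libraries 1 to 4 and at 18.1, 19.3, 18.2 and 17.6 CPM in rFSTL1 libraries 1 to 4. All rFSTL1 libraries lay below all PBS libraries. Its log2 difference was -0.19 (standard error 0.07, 95% interval -0.34 to -0.04, unadjusted p = 0.0147), and the adjusted p from edgeR was 0.216, so it did not pass the test. Rcor1 (ENSMUSG00000037896), the founding scaffold and the most abundant of the 3, was at 98.7, 106.5, 108.5 and 104.5 CPM under PBS and at 100.9, 101.1, 103.0 and 104.0 CPM under rFSTL1. The groups overlapped, with PBS library 1 lowest of all 8, and the log2 difference was -0.03 (95% interval -0.12 to 0.06, adjusted p = 0.752 from edgeR), moving to -0.07 without PBS library 1 and to -0.01 without PBS library 3. Groups without overlap were found for 2 of 6 members, Rcor2 and Rcor3, and for 8.16% of all tested genes, with 4.63% above and 3.53% below. Because the members were selected on this comparison, nothing is read from these counts.

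The enzymes of the complex were all above 100 CPM. Kdm1a (ENSMUSG00000036940), the demethylase, was at 109.2, 104.9, 105.5 and 105.9 CPM under PBS and at 102.8, 103.1, 110.2 and 103.2 CPM under rFSTL1. The groups overlapped because rFSTL1 library 3 was the highest of all, and the log2 difference was -0.02 (95% interval -0.11 to 0.07, adjusted p = 0.841 from edgeR), or -0.05 without that library and -0.01 without rFSTL1 library 4. Hdac1 (ENSMUSG00000028800) had 128.8, 127.6, 126.4 and 122.2 CPM under PBS and 123.6, 131.3, 128.7 and 127.7 CPM under rFSTL1. Its log2 difference was 0.02 (95% interval -0.07 to 0.10, adjusted p = 0.862 from edgeR). Hdac2 (ENSMUSG00000019777) was at 129.8, 124.8, 127.3 and 126.0 CPM under PBS and at 131.3, 120.2, 109.0 and 108.7 CPM under rFSTL1. Here the rFSTL1 libraries were spread widely, library 1 above every PBS library and libraries 3 and 4 far below them. The log2 difference of Hdac2 was -0.12 (95% interval -0.24 to 0.00, adjusted p = 0.328 from edgeR), and without rFSTL1 libraries 3 and 4 it was -0.01 (adjusted p = 0.948). Without rFSTL1 library 1 it was -0.18 (unadjusted p = 0.00322, adjusted p = 0.105). Hdac2 had an unadjusted p of 0.0560 in edgeR and 0.00730 in limma voom (adjusted p = 0.0858), where 3 members were under 0.05. It was 0.0373 with the replicate block, 0.0471 with library totals alone and 0.0363 with all genes of at least 1 count, with no adjusted p under 0.05 in any of these. Libraries 3 and 4 are those that stand apart on the first principal component, and the part this plays was not tested.

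**Figure D2:**
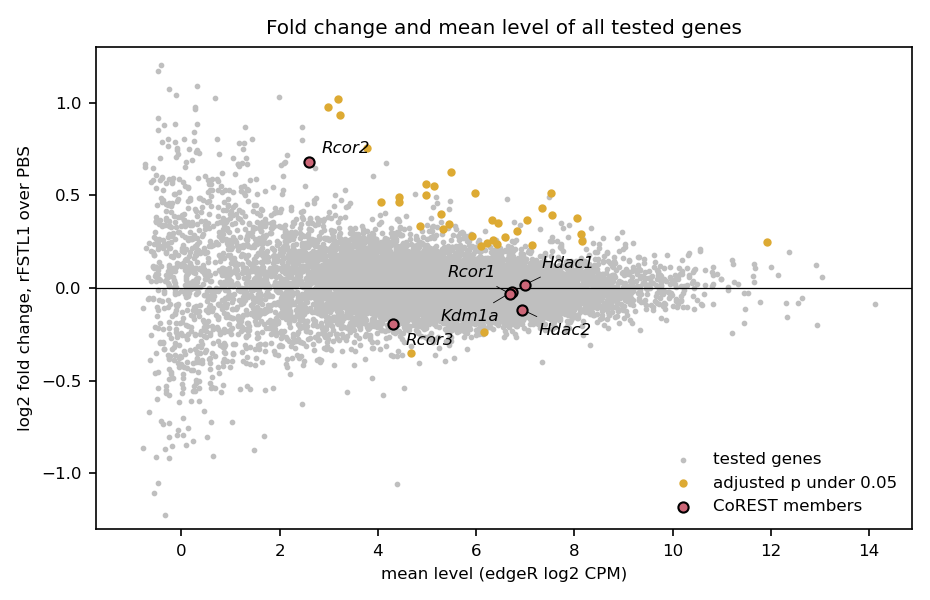
Log2 fold change of rFSTL1 over PBS (vertical axis) against mean level in edgeR's log2 CPM (horizontal axis) for the 10748 tested genes (grey), the 37 with an adjusted p under 0.05 (yellow) and the 6 CoREST genes (red, named). Rcor2 lies at 0.68 and Rcor3 at -0.19, and the other 4 lie between -0.12 and 0.02.

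The members were tested on rows that differ in how far reads can be assigned. In the GENCODE transcripts, no stretch of 50 bases of the longest Rcor2, Kdm1a or Hdac2 transcript recurred in another gene. For Hdac1, 58.7% of positions began a stretch shared with another gene, mostly the processed pseudogene Gm10093 (56.4%), so its count depends on how shared reads were assigned. For Rcor3, 16.8% of positions were shared, mainly with the antisense gene Gm26879, whose exons overlap those of Rcor3 by 667 bases. Strand-specific counting is not stated, so reads of Rcor3 and its antisense genes cannot be told apart. Rcor1 shared 0.0887% of positions.

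Levels of different genes were compared per kilobase of the longest annotated transcript. Under PBS the order was Hdac1 (61.9 ± 1.41 CPM per kilobase), Hdac2 (39.1 ± 0.660), Kdm1a (35.1 ± 0.627), Rcor1 (18.4 ± 0.743), Rcor3 (5.51 ± 0.140) and Rcor2 (1.62 ± 0.111), all SD with n = 4. No neighbours in this order overlapped under PBS. Under rFSTL1 the order of the means was the same, with Rcor3 at 4.82 ± 0.190 and Rcor2 at 2.62 ± 0.252 CPM per kilobase, but Hdac2 (33.4 to 40.4) overlapped Kdm1a (33.96 to 36.4). Rcor2 thus remained the lowest scaffold in every library.

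Rcor2 made up a larger part of the scaffold RNA under rFSTL1. Its share of the summed levels per kilobase of Rcor1, Rcor2 and Rcor3 was 6.59%, 6.52%, 6.55% and 5.74% in PBS libraries 1 to 4 and 11.2%, 10.96%, 9.78% and 9.22% in rFSTL1 libraries 1 to 4. The rFSTL1 shares were all above the PBS shares, by 3.94 percentage points between the means of 6.35% ± 0.407 and 10.3% ± 0.944 (SD, n = 4). The share of Rcor3 was 21.6% ± 0.959 under PBS and 19.0% ± 0.612 under rFSTL1, and that of Rcor1 was 72.0% ± 0.858 and 70.8% ± 1.43. The scaffold sum itself was 25.5 ± 0.734 CPM per kilobase under PBS and 25.4 ± 0.1796 under rFSTL1. The ratio of Kdm1a to that sum was 1.38 ± 0.0649 and 1.36 ± 0.0484. The ratio of Rcor2 to Rcor3 was 0.295 ± 0.0271 under PBS and 0.542 ± 0.0408 under rFSTL1. These shares and ratios use the same counts that chose Rcor2 and were given no test. With the mean transcript length in place of the longest, the Rcor2 share differed by 4.96 points.

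**Figure D3:**
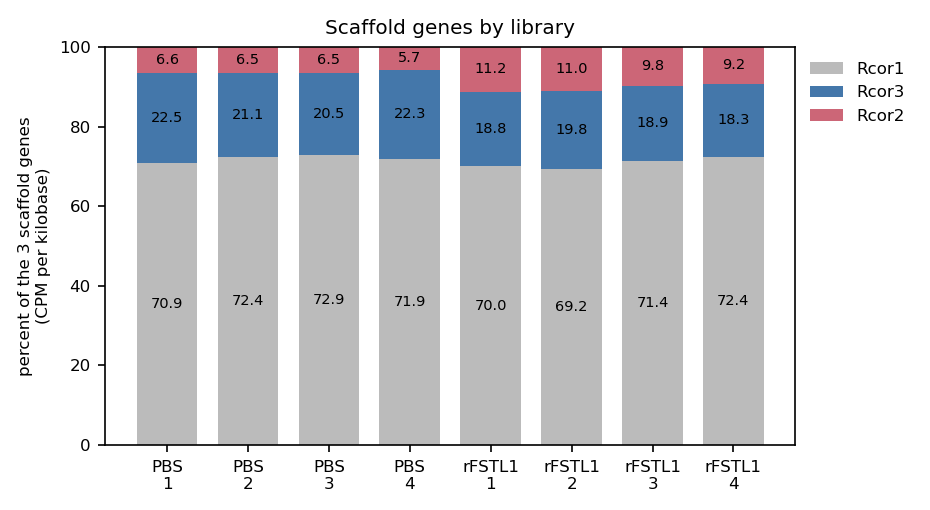
Share of Rcor1 (grey), Rcor3 (blue) and Rcor2 (red) in their summed level per kilobase of longest transcript, in percent, for each of the 8 libraries. The Rcor2 share was 5.74% to 6.59% in the PBS libraries and 9.22% to 11.2% in the rFSTL1 libraries, and the Rcor1 share was between 69.2% and 72.9% in all 8.

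The partners that join the CoREST core were tested next. None of 10 associated genes had an adjusted p under 0.05 in edgeR, DESeq2 or limma voom, and 2 had an unadjusted p under 0.05 in edgeR (against 15.9% of all tested genes). Their median log2 difference was 0.04, against 0.01 over all tested genes. Gse1, a CoREST subunit, had a log2 difference of 0.19 (standard error 0.07, unadjusted p = 0.0188, adjusted p = 0.233), from 40.7 ± 3.77 to 46.5 ± 3.85 CPM. Zmym2, a zinc finger subunit, had -0.10 (unadjusted p = 0.0489), with all rFSTL1 libraries below all PBS libraries. The subunits Phf21a and Hmg20b and the corepressors Ctbp1 and Ctbp2 had log2 differences of 0.07 to 0.16, and Zmym3, Rreb1 and Zfp217 had -0.02, -0.03 and -0.04. None of these passed. Kdm1b, the other demethylase of this kind, was at 0.02.

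The factors known to bring CoREST to DNA were mostly absent or low. Of 17 listed, 7 had enough counts to be tested, and Gfi1b, Insm1, Bcl11a and Nr2e1 were at 0 in every library. None of the 7 passed in edgeR. Zeb2, a repressor that shapes macrophage identity, was 191.2, 195.7, 196.7 and 206.7 CPM under PBS and 182.7, 179.6, 173.2 and 180.2 CPM under rFSTL1. All rFSTL1 libraries were below all PBS libraries, with a log2 difference of -0.14 (standard error 0.04, unadjusted p = 0.00294). Its adjusted p was 0.137 in edgeR, 0.0384 in DESeq2 and 0.0332 in limma voom. Rest, the repressor of neuronal genes, had 77.0 ± 0.260 CPM under PBS and 83.0 ± 7.32 CPM under rFSTL1 (unadjusted p = 0.0827). Nr4a2 was low, at 1.44 ± 0.374 and 1.25 ± 0.143 CPM.

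Neuronal and inflammatory genes, the 2 kinds linked to CoREST above, were read in 2 lists. Of 28 neuronal genes bound by REST, 21 were too low to test, 10 of them at 0 in every library and the rest with at most 11 counts. The other 7 did not pass in edgeR, DESeq2 or limma voom, and none had an unadjusted p under 0.05 in edgeR. Their log2 differences ran from -0.43 for Syp to 0.53 for Grin1, and L1cam, the most abundant, was at 38.8 ± 2.34 and 39.4 ± 4.47 CPM. Of 8 inflammatory genes of the kind tied to NR4A2 and CoREST, 6 were tested and 3 rose in edgeR, DESeq2 and limma voom, where 0.326%, 1.21% and 2.27% of all tested genes rose. Nos2, the inducible nitric oxide synthase, had 6.41 ± 1.73 CPM under PBS and 12.3 ± 2.53 under rFSTL1, a log2 difference of 0.93. It had an adjusted p of 0.0299 in edgeR, which was above 0.05 without PBS library 2, 3 or 4 or without rFSTL1 library 3, up to 0.156. The chemokines Ccl3 (0.40, from 160.5 ± 7.03 to 211.3 ± 14.2 CPM) and Ccl4 (0.51, from 51.9 ± 5.24 to 74.2 ± 8.98 CPM) had adjusted p values of 0.00363 and 0.0151 in edgeR. That of Ccl4 was above 0.05 without PBS library 3 or 4 or rFSTL1 library 3, up to 0.0656. All 3 genes were highest in rFSTL1 library 2, at 16.0, 226.3 and 85.97 CPM for Nos2, Ccl3 and Ccl4, and without it their log2 differences were 0.78, 0.36 and 0.43, each with an adjusted p under 0.05 in edgeR. Tnf had 0.12 (unadjusted p = 0.0227, adjusted p = 0.247), or 0.07 without rFSTL1 libraries 3 and 4, and Ccl2 and Cxcl10 did not pass, while Il1b and Il6 had at most 3 counts in any library. These genes were listed with the earlier results known, and whether they are CoREST targets in these cells was not measured.

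The NuRD and Sin3 complexes likewise carry HDAC1 and HDAC2. In edgeR none of the 12 NuRD genes passed, none had an unadjusted p under 0.05, and their log2 differences ran from -0.08 to 0.07. DESeq2 and limma voom called none of them. Of 13 Sin3 genes none passed in edgeR and 3 had an unadjusted p under 0.05, against 15.9% of all tested genes. Sap30, a Sin3 subunit, was at 100.5 ± 4.92 CPM under PBS and 115.5 ± 5.18 CPM under rFSTL1. Its log2 difference was 0.20 (standard error 0.05), with an adjusted p of 0.0902 in edgeR, 0.0294 in DESeq2 and 0.0332 in limma voom. The Sin3 subunits Arid4b (-0.22, unadjusted p = 0.0173) and Sinhcaf (-0.13, unadjusted p = 0.0373) had values below 0. Without rFSTL1 libraries 3 and 4 these were -0.07 (adjusted p = 0.819) and -0.04 (adjusted p = 0.837).

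The 3 genes of MiDAC, a mitotic complex that also carries HDAC1 and HDAC2, and the 5 NCoR and SMRT genes, whose complex carries HDAC3, did not pass in edgeR, DESeq2 or limma voom. Of these 8, Tbl1xr1 of NCoR, at -0.18 (unadjusted p = 0.0117), was the 1 with an unadjusted p under 0.05 in edgeR. It was at -0.26 without rFSTL1 library 2, with an adjusted p of 0.0383, and at -0.11 without rFSTL1 libraries 3 and 4. Of the other 9 deacetylase genes, 7 were tested and none passed with any of the 3 tools. Hdac10, a polyamine deacetylase, had 0.25 (standard error 0.09, unadjusted p = 0.0152), from 11.1 ± 0.301 to 13.2 ± 1.13 CPM, with no overlap. Hdac5 had 0.16 (unadjusted p = 0.0492), and 0.07 without rFSTL1 library 4 (unadjusted p = 0.235), where it was at 58.5 CPM against 44.5 to 49.3 in the other rFSTL1 libraries. Kdm5a and Kdm5c, demethylases of the same lysine, were at -0.03 and 0.07, and neither passed.

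**Figure D4:**
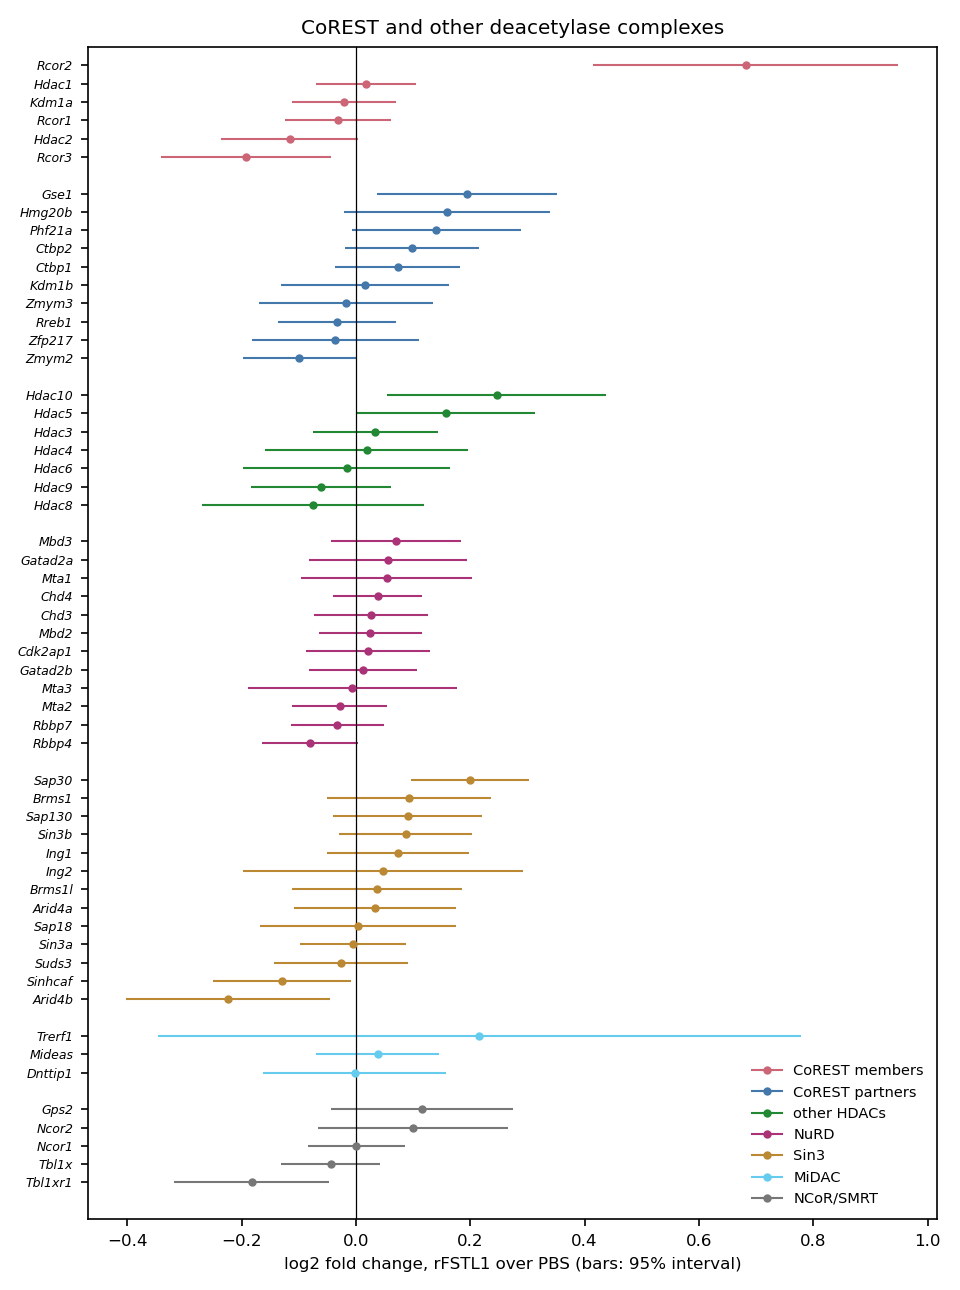
Log2 fold change of rFSTL1 over PBS (horizontal axis) with its 95% interval for the CoREST members (red), their partners (blue), other deacetylases (green), NuRD (purple), Sin3 (brown), MiDAC (light blue) and NCoR/SMRT (grey), each gene on its own row. The interval of Rcor2 runs from 0.41 to 0.95, and the genes of NuRD lie between -0.08 and 0.07.

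Across the 8 libraries, the genes whose log2(CPM + 1) followed Rcor2 closely included Dynll1 (Pearson r = 0.988), Ppme1 (0.977), Plekha2 (0.975) and Cdkn2d (0.970). The 8 points share their libraries and the group difference, and 58 tested genes had r of at least 0.9. Dynll1, a dynein light chain, had 129.3 CPM under PBS and 152.2 CPM under rFSTL1 on average, 0.23 on the log2 scale, and the differences of the other 3 were 0.14 to 0.22. After the group mean was taken from each library, the closest genes were Ugp2 (0.991), 1110059E24Rik (0.990), Dhx36 (0.985), Cyrib (0.977) and Gabpb2 (0.976). These were picked as the highest of all tested genes, and how often such values arise by chance was not tested. Under PBS the spread of Rcor2 between libraries (6.83%) was below its counting error (11.1%). Among the members, r to Rcor2 was -0.856 for Rcor3 and 0.20 within the groups. For Hdac2 it was -0.386 and 0.740 within the groups. Rcor2 and Hdac2 were both lower in rFSTL1 libraries 3 and 4 than in libraries 1 and 2, and the part this plays in that r was not tested.

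**Figure D5:**
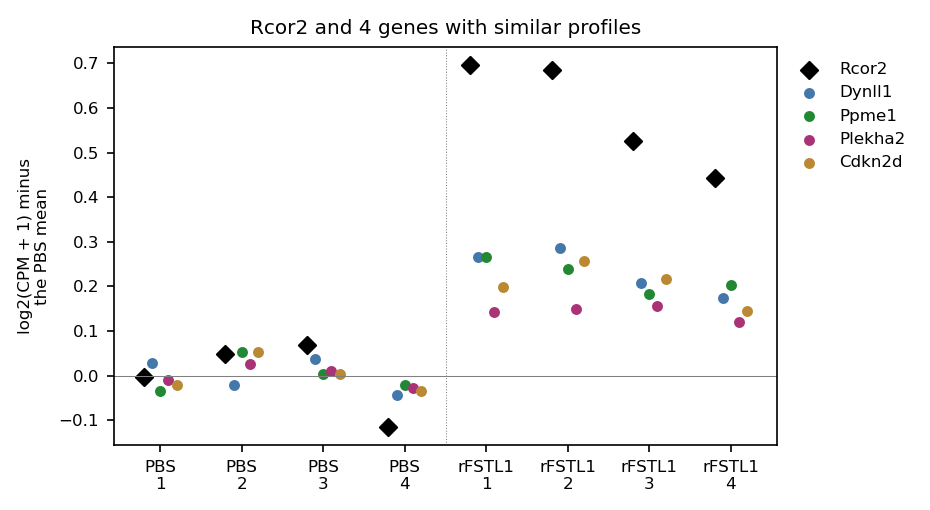
Level of Rcor2 (black diamonds) and 4 genes with similar profiles over the libraries, as log2(CPM + 1) minus the gene's PBS mean (vertical axis), in the 4 PBS and 4 rFSTL1 libraries. Rcor2 stands highest in each rFSTL1 library, and the other 4 genes are at smaller differences.

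Genes beside Rcor2 on chromosome 19 were compared because they share its neighbourhood. The 3 tested genes before it in gene order, Otub1, Cox8a and Naa40, had log2 differences of 0.04, 0.02 and 0.00. Of the 3 after it, Mark2, a microtubule kinase, had 0.14 (unadjusted p = 0.0294), Spindoc had 0.34 (unadjusted p = 0.0264) and Rtn3, a reticulon of the endoplasmic reticulum, had -0.11 (unadjusted p = 0.0355). Without rFSTL1 libraries 3 and 4, Mark2 was at 0.03 and Rtn3 at -0.04. Spindoc was low, at 5.68 ± 0.629 CPM under PBS and 7.19 ± 1.15 CPM under rFSTL1, and its groups overlapped. Its log2 difference ran from 0.23 to 0.42 over the alternatives run. None of the 6 had an adjusted p under 0.05 in edgeR, where 15.9% of all tested genes had an unadjusted p under 0.05.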

How the data were processed

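RNA-seq of 4 PBS and 4 rFSTL1 libraries of RAW264.7 cells was used, grouped by treatment label. The authors deposited expected counts (estimated counts) per gene, without normalization; their processing notes name HISAT2, StringTie 1.3.1, Bowtie2 2.2.8 and DESeq2, and the build and annotation are not given in the sources used here. Of nonzero values 13.0% were not whole, and all were rounded. The planned design assumed whole counts, and its tests were kept. filterByExpr (minimum count 10) kept 10748 genes, compared with edgeR 4.0.16 (TMM, glmQLFit, glmQLFTest) under R 4.3.3, and p-values were adjusted by Benjamini-Hochberg. DESeq2 1.42.0, limma 3.58.1 voom with sample quality weights, other scalings, filters, thresholds and leaving out libraries were alternatives. Members and lists were chosen with earlier results of these data known. Named genes are the members, list genes with an unadjusted p under 0.05, the most abundant or absent ones, the 5 most like Rcor2 by each measure and 3 neighbours a side, of which some are not reported here; other list genes named for their role or extreme value were chosen after their values were seen. Transcript lengths and stretches of 50 bases came from GENCODE (GRCm38), promoters from RefSeq. Replicates differed by more than sampling noise (chi-square per degree of freedom at least 3.03).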

Additional observations from a re-analysis of the deposited data

Results flagged for a closer look

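In 3 of 60 groups of 4 libraries, 1 library stood far from the others by Dixon's test at its 95% value, and chance alone would give 3. Kdm1a in rFSTL1 library 3 was at 110.2 CPM, while the other rFSTL1 libraries were at 102.8 to 103.2. Hdac10 in PBS library 4 was at 11.6 CPM, against 10.9 to 11.02 in the other PBS libraries. Sap30 in rFSTL1 library 2 was at 123.2 CPM, against 112.3 to 113.7 in the other rFSTL1 libraries.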

How the results depend on the processing

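Rcor2 was called by every tool, scaling, filter and threshold run, at 0.64 (limma voom) to 0.69 (upper-quartile factors); leaving out 1 library gave 0.63 to 0.74. Members called were 0 to 1 with 1 library left out, with 0 for the 5 libraries named in the report. The 37 genes called overall became 182 with DESeq2, 454 with limma voom, 56 with upper-quartile factors, 127 with all genes of at least 1 count, 133 at an adjusted p under 0.1 and 11 to 99 with 1 library left out (24, 11, 12 and 12 without PBS libraries 1 to 4, and 99, 90 and 16 without rFSTL1 libraries 1 to 3). The 3 genes called in the related lists became 5 with DESeq2 and 5 with limma voom, with Zeb2 and Sap30 added, and 1 to 4 with 1 library left out (1 without PBS library 3, PBS library 4 or rFSTL1 library 3). Deviations of libraries with the same number were little correlated (-0.090, 0.085, -0.013 and 0.001), and 1 of 8 libraries correlated best with its own number. The labels do not say whether libraries of the same number were handled together. With the number as a block, 41 genes were called and Rcor2 was at 0.69 (adjusted p = 0.0415 in edgeR). The Rcor2 scaffold share differed by 4.96 points with mean transcript lengths. Signs turned for values close to 0: Kdm1a at 0.0048 with limma voom; Hdac1 at -0.0029 to 0.027 with 1 library left out (below 0 without PBS library 4 or rFSTL1 library 2); Naa40 at -0.0026 with DESeq2, -0.0030 with all genes of at least 1 count, -0.00067 with the block, and -0.040 to 0.038 with 1 library left out; and Cox8a at -0.049 to 0.12 with 1 library left out. Without rFSTL1 libraries 3 and 4, an alternative chosen after seeing the data, 34 genes, 1 member and 3 genes of the related lists were called, and Naa40 was at -0.099, Cox8a at -0.13, Otub1 at -0.0091, Mark2 at 0.030, Rtn3 at -0.042, Tnf at 0.067, Arid4b at -0.065, Sinhcaf at -0.044, Hdac5 at 0.045 and Tbl1xr1 at -0.11. Left out alone, rFSTL1 library 4 gave Hdac5 at 0.075 and Rtn3 at -0.071, and rFSTL1 library 2 gave Sinhcaf at -0.20 and Tbl1xr1 at -0.26, which was then called. The cause was not tested. At about 4 to 8 CPM, the counting error of Rcor2 was 11.1% of the mean under PBS and 8.85% under rFSTL1, where the spread between libraries was 6.83% and 9.62%, and the depth limits what can be said of the untested regulators.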
